A study of Mus musculus with 6 samples.

Results

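The group described here comprises 7 mature miRNAs of the miR-15, miR-16, miR-103 and miR-107 type, which are mmu-miR-15a-5p, mmu-miR-15b-5p, mmu-miR-15b-3p, mmu-miR-16-5p, mmu-miR-195a-5p, mmu-miR-103-3p and mmu-miR-107-3p. The prefix for mouse is mostly left out below. They were chosen by name, with earlier results of these data known, and all 7 were among the 685 mature miRNAs listed in every library. Small RNA was sequenced from N2a cells, a mouse neuroblastoma line, which had been differentiated toward neurons with 10 µM retinoic acid in 2% serum over 96 h. The RSL3 group then received 5 µM RSL3, an inhibitor of the lipid peroxide reductase GPX4 that triggers ferroptosis, for 24 h. The DMSO group received the solvent alone, so both groups carry the retinoic acid treatment. Each group had 3 libraries from this single line, and the labels do not say whether they came from separate cultures, so a p-value reflects the spread among these libraries alone, which may be technical.

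A miRNA guides Argonaute proteins to messenger RNAs mainly through its seed, the bases near its 5′ end, and paired messengers are repressed. miR-15 and miR-16 are known as brakes on the cell cycle and on survival, through targets that include cyclin D1, cyclin E1 and BCL2. miR-103 and miR-107 lie in introns of pantothenate kinase genes, which make coenzyme A, and in mouse they lower insulin sensitivity. Each precursor hairpin can give a 5p and a 3p strand, of which usually a single strand is kept as the guide.

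The mature sequences show what the members share. They are RefSeq sequences on GRCm38.p6, written 5′ to 3′, with bases 2 to 8 in capitals.
miR-15a-5p: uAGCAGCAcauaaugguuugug
miR-15b-5p: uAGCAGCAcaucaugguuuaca
miR-16-5p: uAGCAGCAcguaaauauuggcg
miR-195a-5p: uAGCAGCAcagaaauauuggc
miR-103-3p: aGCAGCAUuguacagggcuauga
miR-107-3p: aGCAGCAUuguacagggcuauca
miR-15b-3p: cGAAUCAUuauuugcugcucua
The first 4 have the same seed, and the run AGCAGCA starts at base 2 in them. In miR-103-3p and miR-107-3p the same run starts at base 1, so their seed is shifted by a single base and reads GCAGCAU. miR-15b-3p holds neither seed. It belongs to the group as the opposite strand of the miR-15b hairpin, and not by a related seed.

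Members that share a seed differ outside it, as these pairs show. Counted from 1 at the 5′ end, miR-103-3p and miR-107-3p differ only by G22C. With miR-15a-5p first, it and miR-15b-5p differ by A12C, G20A, U21C and G22A. Over the 21 bases of miR-195a-5p, miR-16-5p differs from it by G10A and U11G. How the authors assigned a read that ends before base 22 of miR-103 or miR-107 is not given in the sources used here, so the split between these 2 is uncertain.

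The genes that make them sit at separate places in the genome (GENCODE M21, GRCm38). Mir15a (chr14:61632027-61632110, minus strand) lies in an intron of the long non-coding gene Dleu2, 54 bases from Mir16-1 (chr14:61631880-61631972, minus strand), which overlaps a Dleu2 exon. Mir15b (chr3:69009772-69009835, plus strand) and Mir16-2 (chr3:69009902-69009996, plus strand) lie 66 bases apart in an intron of Smc4, which encodes a condensin subunit. Mir195a (chr11:70235042-70235135, plus strand) lies 241 bases from Mir497 and overlaps no annotated gene of a type other than miRNA. Overlap with other miRNA genes was not checked. Mir103-1 (chr11:35782396-35782481, plus strand) is in an intron of Pank3, Mir103-2 (chr2:131288052-131288137, plus strand) in an intron of Pank2, and Mir107 (chr19:34820687-34820773, minus strand) in an intron of Pank1. Mature miR-16-5p is made from 2 of these loci, as is miR-103-3p. Each has a single listed value per library, in which the 2 loci cannot be told apart. Whether that value is a sum over both is unknown, since how the authors counted reads that fit both loci is undocumented.

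The libraries held 3406276 to 4989380 recovered miRNA reads after RSL3 and 4306460 to 6058006 after DMSO. Levels are the authors' normalised values, a CPM (reads relative to the library total) scaled by edgeR's TMM factor; a single read was worth 0.157 to 0.314 CPM. All 7 members passed the filter on low values, and the scarcest, miR-15a-5p, had 58 to 201 reads per library. Of the neuronal marker miRNAs, 7 of 7 were listed, with a summed level of 184521 to 232225 CPM in RSL3 and 217027 to 292836 CPM in DMSO libraries, most of it miR-7a-5p; miR-124-3p was at 150 to 221 CPM and 135 to 165 CPM. Of the blood and immune markers, 5 of 8 were listed, at a sum of 134 to 201 CPM in RSL3 and 120 to 153 CPM in DMSO libraries, and none of the listed ones was at 0. In erythroid cells miR-16 and miR-15b are also abundant, and the part of such RNA in the values below was not tested. Glial markers (3 of 3 listed) summed to 143 to 190 CPM and 137 to 178 CPM. Endothelial, fibroblast and smooth muscle markers (5 of 5 listed) summed to 36744 to 37868 CPM and 35832 to 39029 CPM, nearly all miR-143-3p. Within that list miR-145a-5p was at 602 to 753 CPM in RSL3 and 868 to 1052 CPM in DMSO libraries, and miR-126a-3p at 728 to 873 CPM and 586 to 646 CPM. The log2 fold change of RSL3 over DMSO was negative in 4 of the 5 and positive in 1, with a median of -0.24. At an adjusted p under 0.05, 0 of the 5 passed in limma, where 0.751% of all miRNAs tested did. In DESeq2 2 of the 5 passed, where 8.31% of the 433 miRNAs given an adjusted p did. The part of these markers in the members' values was not tested.

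RSL3 and DMSO libraries were compared to ask whether any member changed after GPX4 inhibition. Of the 7 members, 0 passed in limma (Benjamini-Hochberg adjusted p over 666 miRNAs, with 0.05 as the limit), where 0.751% of all miRNAs tested did. In edgeR and DESeq2 0 of 7 passed too, against 0.901% of all miRNAs tested in edgeR and 8.31% of the 433 that DESeq2 gave an adjusted p (it gave none to the other 233). At an unadjusted limma p under 0.05 there was 1 member, miR-15a-5p, which was lower, where 17.3% of all miRNAs reached this level and 8.41% did so on the lower side. The groups did not overlap in 2 members, miR-195a-5p on the higher side and miR-15a-5p on the lower, where 24.3% of all miRNAs tested did not overlap (12.3% higher and 12% lower). The log2 fold changes were positive in 5 members and negative in 2, with a median of 0.14, and positive in 50.2% of all miRNAs, with a median of 0.0013. The signs of the members are not independent, since miR-16-5p, miR-103-3p and miR-195a-5p were all lowest in DMSO library 3. The sign of miR-107-3p also depended on the scaling. All fold changes were computed as differences of log2(CPM + 1), and so the change of a scarce miRNA is understated. In such bulk samples fewer cells that make a miRNA and less of it per cell cannot be told apart.

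mmu-miR-16-5p, the main miR-15-type guide in these cells, had 1111, 989 and 1138 CPM in RSL3 libraries 1 to 3, against 999.7, 1058 and 859 CPM in DMSO libraries 1 to 3. The highest DMSO library lay above the lowest RSL3 library, so the groups overlapped. The means were 1079.6 ± 79.5 CPM after RSL3 and 972 ± 102 CPM after DMSO (SD, n = 3 each). The log2 fold change was 0.15 ± 0.12 (SE), with a 95% interval of -0.10 to 0.41 and a limma adjusted p of 0.53. It was 0.07 without DMSO library 3.

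mmu-miR-15a-5p, made with miR-16 from the Dleu2 locus, had 23.1, 18.2 and 22.1 CPM in RSL3 libraries, against 31.5, 30.0 and 23.6 CPM in DMSO libraries. All 3 RSL3 libraries lay below all 3 DMSO libraries, but the nearest pair, RSL3 library 1 and DMSO library 3, were almost level. The mean was 21.1 ± 2.59 CPM after RSL3 and 28.4 ± 4.18 CPM after DMSO, a ratio of 0.745. The log2 fold change was -0.40 ± 0.18 (SE), with a 95% interval of -0.80 to -0.01 and a limma adjusted p of 0.27 (unadjusted p = 0.044). Under the alternatives the unadjusted p ran from 0.020 to 0.15, and it was above 0.05 in 4 of the 6 fits that left out a library. It was the member farthest from 0.

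mmu-miR-15b-5p, the same-seed guide from the Smc4 intron, had 224, 155 and 182 CPM in RSL3 libraries, against 182, 250.1 and 189 CPM in DMSO libraries. Its highest value was in DMSO library 2 and its lowest in RSL3 library 2, and the groups overlapped. The log2 fold change was -0.14 ± 0.16 (SE), from -0.49 to 0.21 at 95%, with a limma adjusted p of 0.67. It was -0.28 without RSL3 library 1 and -0.00057 without DMSO library 2.

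mmu-miR-195a-5p, a guide of the same seed that is best known from heart and muscle, had 63.8, 61.2 and 68.6 CPM in RSL3 libraries, against 60.0, 57.7 and 49.0 CPM in DMSO libraries. The groups did not overlap, although RSL3 library 2 and DMSO library 1 were close to each other. The means were 64.5 ± 3.75 CPM after RSL3 and 55.6 ± 5.81 CPM after DMSO, with a log2 fold change of 0.22 ± 0.14 (SE). Its limma adjusted p was 0.45, and its 95% interval ran from -0.10 to 0.53. Without DMSO library 3 the log2 fold change was 0.13.

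mmu-miR-103-3p, the most abundant member, had 3167, 2629.96 and 3148 CPM in RSL3 libraries, against 2766, 3118 and 2266 CPM in DMSO libraries. Each group had a low library, and the groups overlapped widely. The log2 fold change was 0.14 ± 0.14 (SE), from -0.15 to 0.44 at 95%, with a limma adjusted p of 0.61. Without DMSO library 3 it was 0.02, and without DMSO library 2 it was 0.25. The miRNA ranked 42 of 685 by level and held 0.286% of a library's signal on average.

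mmu-miR-107-3p, which differs from miR-103-3p at a single base, had 222, 146 and 155 CPM in RSL3 libraries, against 156, 186 and 163 CPM in DMSO libraries. RSL3 library 1 was the highest and RSL3 library 2 the lowest of all 6, so the DMSO values lay within the RSL3 range. The log2 fold change was 0.03 ± 0.16 (SE; limma adjusted p = 0.95), and its sign turned negative without RSL3 library 1 (-0.16), without DMSO library 1 (-0.03), after rescaling without the 5 most abundant miRNAs (-0.02) and as a plain share of the listed reads (-0.03).

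**Figure D1:**
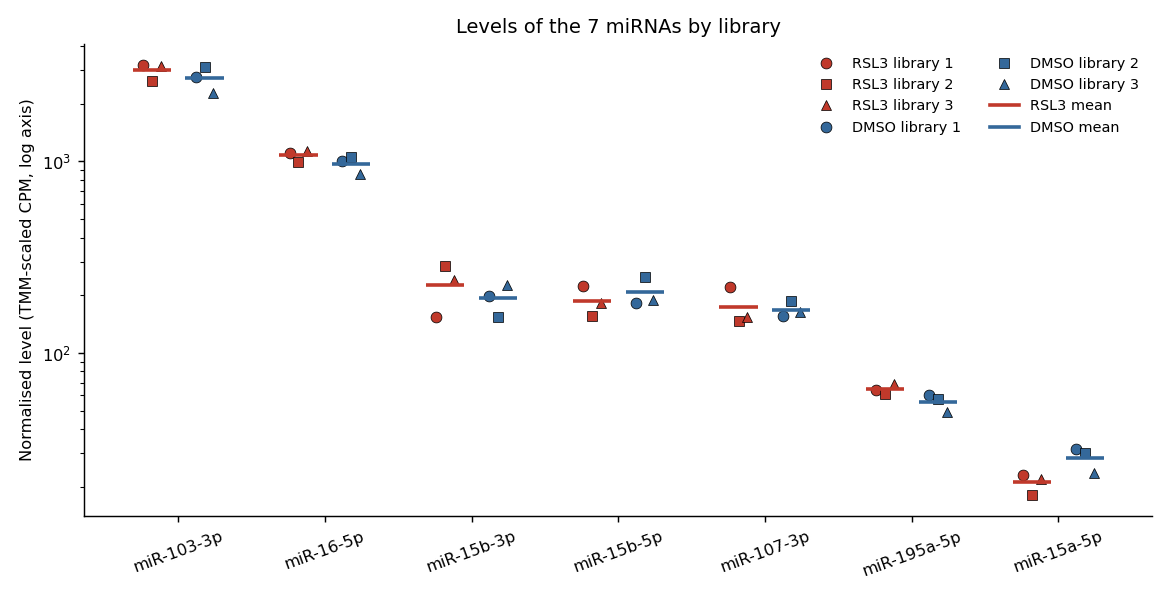
Level of each of the 7 miRNAs in TMM-scaled CPM on a log axis, with 1 point per library (RSL3 red, DMSO blue) and a bar at each group mean. The members span levels from 18.2 CPM (miR-15a-5p, RSL3 library 2) to 3167 CPM (miR-103-3p, RSL3 library 1), and the groups are separate only for miR-195a-5p and miR-15a-5p.

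In order of mean level the members were miR-103-3p, miR-16-5p, miR-15b-3p, miR-15b-5p, miR-107-3p, miR-195a-5p and miR-15a-5p. Mature miRNAs are of nearly equal length (21 to 23 bases here) and a read is a whole molecule, so no length scaling was applied; adapter joining favours some sequences, and this limits comparisons between miRNAs. The order of neighbours held in all 6 libraries except for the 2 arms of miR-15b, where 15b-3p was the higher in 4 of 6. miR-103-3p was 2.64 to 2.95 times miR-16-5p in every library, the narrowest range of the neighbouring pairs.

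The 4 ratios between members set in the design did not pass their tests. The log2 ratio of miR-16-5p to the sum of miR-15a-5p and miR-15b-5p was 2.38 ± 0.19 in RSL3 and 2.05 ± 0.16 in DMSO libraries (SD, n = 3 each), a difference of 0.33 (two-sided exact permutation p = 0.2, or 0.267 after Benjamini-Hochberg adjustment over the 4 ratios). DMSO library 1, at 2.22, lay above RSL3 library 1, at 2.16, so the groups overlapped. The log2 ratio of miR-15b-5p to miR-103-3p was -4.00 ± 0.16 and -3.71 ± 0.18, and that of miR-15a-5p to miR-15b-5p was -3.08 ± 0.13 and -2.82 ± 0.29 (exact permutation p = 0.2 each). The log2 ratio of miR-103-3p to miR-107-3p was 4.11 ± 0.26 in RSL3 and 4.00 ± 0.18 in DMSO libraries (exact permutation p = 0.5). With 3 against 3 libraries 0.1 is the smallest p possible, so no ratio could have passed.

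Summed by seed, the miR-15 type was the smaller pool. The 6 listed entries with the seed AGCAGCA (the 4 members with miR-322-5p and miR-497a-5p) summed to 1507, 1294 and 1488 CPM in RSL3 libraries, against 1347, 1499 and 1192 CPM in DMSO libraries. miR-16-5p made up 75.5 ± 1.56% of that sum after RSL3 and 72.3 ± 1.82% after DMSO, and miR-15a-5p 1.47 ± 0.06% and 2.11 ± 0.20%. The 2 entries with the seed GCAGCAU summed to 3389, 2776 and 3302 CPM in RSL3 libraries, against 2922, 3305 and 2428 CPM in DMSO libraries. Of that sum miR-103-3p held 93.3% to 95.3% in every library. Both sums overlapped between the groups. The seeds could be read for the 554 of 685 entries that had a RefSeq mature sequence.

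The relatives of the members, from a fixed list of 16 names, were the opposite strands of their hairpins and the other miRNAs of the miR-15 and miR-107 gene group. Of these, 10 were listed and tested, and miR-338-3p was added because its seed shares 6 bases in a row with that of miR-103-3p. Of the 11, 0 passed in limma or edgeR, and in DESeq2 0 of the 9 that were given an adjusted p passed. At an unadjusted limma p under 0.05, 1 was higher and 0 lower, and the median log2 fold change was 0.0035. Their fold changes ran from -0.22 to 0.51. The groups did not overlap in 2 of the 11, where 24.3% of all miRNAs tested did not overlap. An unadjusted limma p under 0.05 was reached by 17.3% of all miRNAs tested. With 11 entries, neither count sets the relatives apart from all miRNAs.

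The upper end was miR-497b, a miRNA from the strand opposite to the miR-497a hairpin, with 12.5, 20.4 and 19.1 CPM in RSL3 libraries, against 12.1, 11.5 and 11.2 CPM in DMSO libraries (log2 fold change 0.51 ± 0.21 SE, limma adjusted p = 0.24). RSL3 library 1 lay only just above the DMSO values. Its neighbour miR-497a-5p had a log2 fold change of -0.04 (limma adjusted p = 0.92). miR-322-5p and miR-503-5p, X-linked miRNAs that also restrain the cell cycle, were at -0.09 and 0.04 (limma adjusted p = 0.82 and 0.92).

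The opposite strands tell the paired loci apart, since miR-16-1-3p comes only from the Dleu2 locus and miR-16-2-3p only from the Smc4 locus. miR-16-1-3p had 164, 172 and 159.8 CPM in RSL3 libraries, against 189, 204 and 179 CPM in DMSO libraries. All RSL3 values were below all DMSO values, as in 12% of all miRNAs tested, and the log2 fold change of -0.20 ± 0.12 (SE) did not pass (limma adjusted p = 0.38). The opposite strand of miR-15a-5p from the same locus, miR-15a-3p, was near the floor, at 2.51 to 2.81 CPM after RSL3 and 2.04 to 4.22 CPM after DMSO. miR-16-2-3p had 25.9, 16.9 and 13.4 CPM in RSL3 libraries, against 16.9, 32.8 and 17.1 CPM in DMSO libraries, with RSL3 library 1 and DMSO library 2 the highest (log2 fold change -0.22 ± 0.28 SE, limma adjusted p = 0.70).

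**Figure D2:**
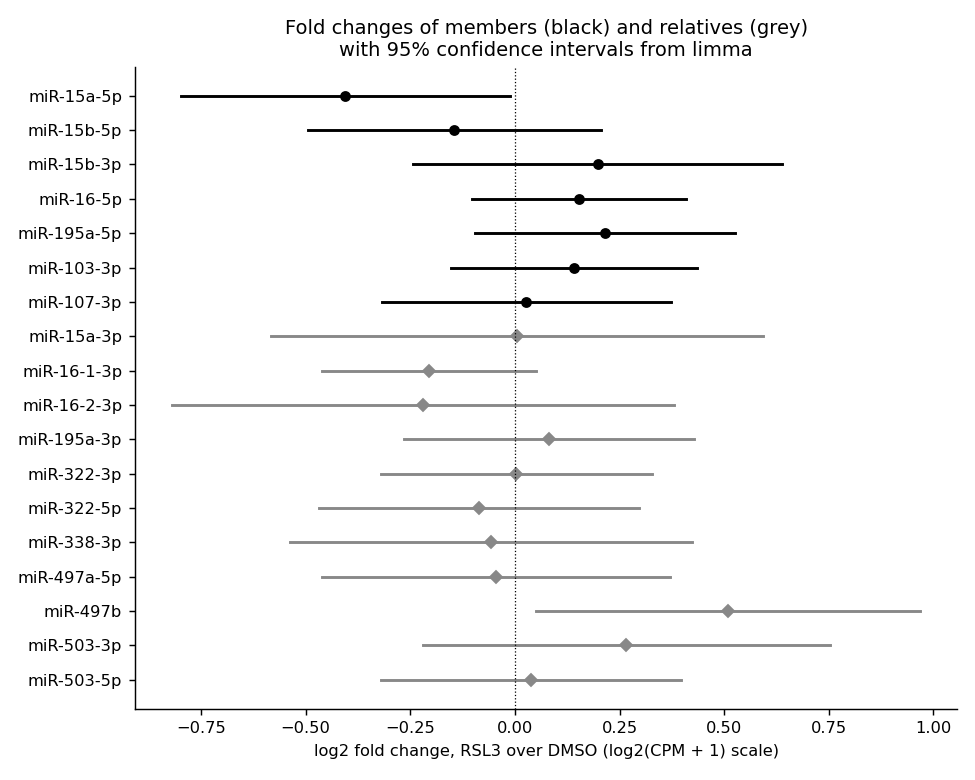
Log2 fold change of RSL3 over DMSO on the log2(CPM + 1) scale for the 7 members (black circles) and 11 relatives (grey diamonds), with 95% confidence intervals from limma. All intervals reach 0 except those of miR-15a-5p (-0.80 to -0.01) and miR-497b (0.05 to 0.97), and 0 of the 18 passed after adjustment.

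The precursor with both strands among the members is miR-15b. Its RefSeq hairpin (chr3:69009772-69009835, plus strand, GRCm38.p6) is shown with both mature strands in capitals, the 5p strand first.
Mir15b hairpin: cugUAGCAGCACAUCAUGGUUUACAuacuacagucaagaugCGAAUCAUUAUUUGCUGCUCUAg

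mmu-miR-15b-3p had 154, 285 and 241 CPM in RSL3 libraries, against 199, 155 and 226 CPM in DMSO libraries. The lowest library of each group was the one in which miR-15b-5p was highest. The log2 fold change of miR-15b-3p was 0.20 ± 0.20 (SE; limma adjusted p = 0.64), and it was 0.45 without RSL3 library 1 and 0.0096 without RSL3 library 2.

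The log2 ratio of miR-15b-5p to miR-15b-3p was 0.54, -0.87 and -0.40 in RSL3 libraries 1 to 3, against -0.13, 0.69 and -0.26 in DMSO libraries 1 to 3. Thus the 5p strand was ahead in RSL3 library 1 and DMSO library 2, and the 3p strand in the other libraries of both groups. The difference between the groups was -0.34 ± 0.37 (SE, limma adjusted p = 0.65), where 2.75% of the 182 precursors tested for their arm ratio passed. Without RSL3 library 1 it was -0.74, and without RSL3 library 2 -0.03. The ratios of miR-15a and miR-195a did not pass either, with differences of -0.41 ± 0.23 and 0.13 ± 0.21 (limma adjusted p = 0.36 and 0.81), nor did those of miR-322 (-0.09) and miR-503 (-0.23).

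**Figure D3:**
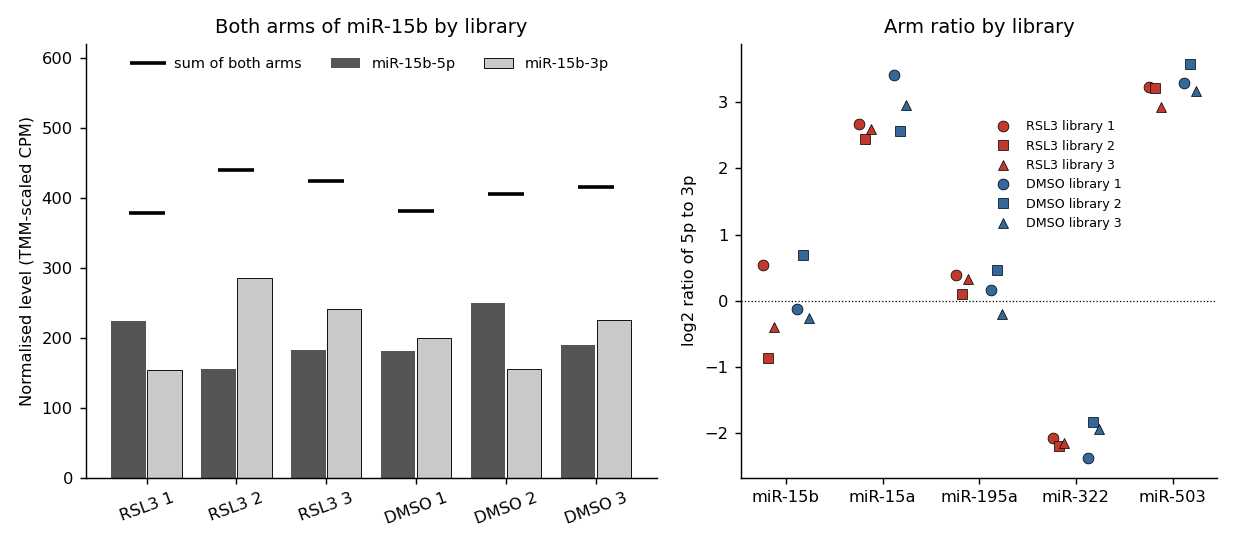
Left, level of miR-15b-5p and miR-15b-3p in each library in TMM-scaled CPM, with a dash at their sum; right, log2 ratio of 5p to 3p by library for miR-15b, miR-15a, miR-195a, miR-322 and miR-503 (RSL3 red, DMSO blue). The sums of both miR-15b strands stay between 378 and 439.9 CPM, while the miR-15b ratio runs from -0.87 to 0.69 with high and low libraries in both groups.

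Between libraries the sum of the 2 miR-15b strands varied less than either strand. The sum was 378, 439.9 and 424 CPM in RSL3 libraries, against 381, 405 and 415 CPM in DMSO libraries. The highest library was 1.16 times the lowest for the sum, 1.61 times for the 5p strand and 1.86 times for the 3p strand. Within a group the SD of the log2 ratio was 0.63, on 494 to 1159 reads of the 5p and 604 to 1272 reads of the 3p strand per library; counting error alone was 0.06 to 0.08 per library and leaves out all other differences between libraries.

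This spread was high among precursors, although the comparison was chosen after the values were seen. miR-15b ranked 6 of 182 by the within-group SD of the ratio, where the median was 0.27. Each of the 5 precursors above it had a strand with a mean under 8 CPM. Among the 38 precursors with both strands at 100 CPM or more it ranked 1, ahead of miR-148b (0.46) and miR-151 (0.43), and the median was 0.22. Across the 666 miRNAs, which are not independent, deviations from the group means in RSL3 library 1 and DMSO library 2 had r = 0.30, and those in RSL3 library 2 and DMSO library 2 had r = -0.33. Over all pairs of an RSL3 with a DMSO library r ran from -0.35 to 0.30. The arm ratio's median deviation from its mean over the 6 libraries was -0.04 to 0.06 per library for the 182 precursors. It was -0.13 to 0.02 for the 38, where the deviation of miR-15b ran from -0.80 to 0.76. The part of library differences in the miR-15b ratio was not tested.

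**Figure D4:**
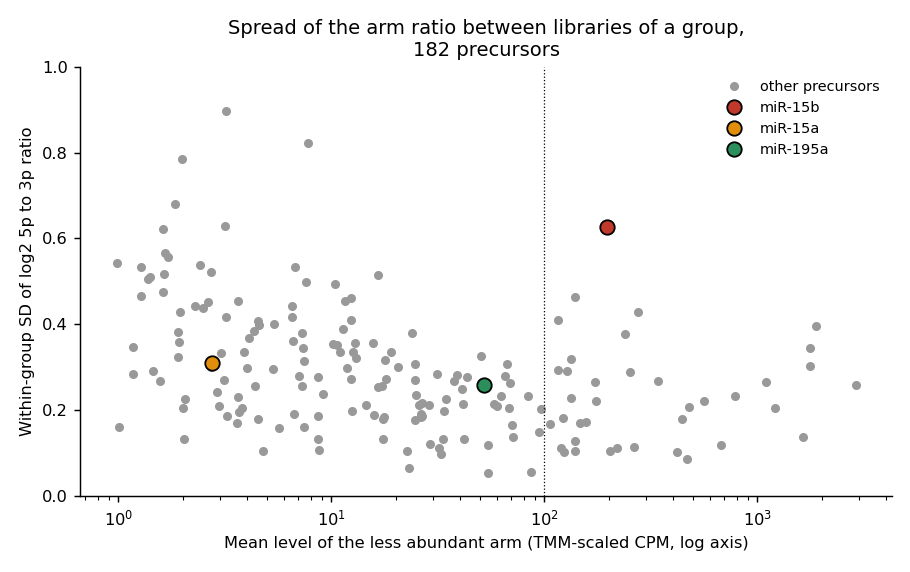
Within-group SD of the log2 ratio of 5p to 3p (SD pooled over RSL3 and DMSO, 3 libraries each) against the mean level of the less abundant strand (log axis) for 182 precursors, with a dotted line at 100 CPM. miR-15b (red), at an SD of 0.63, lies above all others to the right of the line, while miR-15a (orange, 0.31) and miR-195a (green, 0.26) lie within the range of the rest.

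Across the 6 libraries, and among the entries compared here, the profile of miR-16-5p was closest to that of miR-103-3p. Likeness was measured as the root mean square difference of log2 levels centred over the 6 libraries. It was 0.055 between miR-16-5p and miR-103-3p and 0.059 between miR-16-5p and miR-195a-5p. The nearest entries outside the group were miR-466p-3p and miR-466c-3p, whose values were identical and cannot be separated, and miR-466b-3p, at 0.062 each, where the median over 401 entries with a mean of at least 10 CPM was 0.24. The values of miR-466b-3p ran almost in proportion to those of miR-466p-3p in the 6 libraries. These entries may thus carry a shared signal, which was not tested. For miR-103-3p the nearest outside entries were miR-196a-5p (0.073), miR-20a-5p (0.079) and miR-140-5p (0.090), with a median of 0.27. The other miR-15-type members were less close to miR-16-5p, at 0.22 for miR-15b-5p and 0.29 for miR-15a-5p, and miR-15b-3p was at 0.39. These distances describe libraries that share depth and scaling.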

How the data were processed

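The deposited tables, 1 per library, hold a normalised signal for 685 mature miRNAs that the authors named CPM. Per the labels' protocols, RNAs of 15 to 35 nt were selected and read for 50 cycles. The submitters' processing notes name cutadapt, Bowtie, edgeR and GRCm38; the sources used here do not give order, versions or the handling of multi-mapping reads. Dividing the deposited signal by its smallest step in each library gave whole reads, within 0.01, for 100% of the values. The steps matched TMM factors (0.936 to 1.05) computed from those reads, so signal is relative to listed miRNAs, and total miRNA per cell is not measured.

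The test was limma 3.58.1 (R 4.3.3), with log2(CPM + 1) as input and a variance trend, two-sided, Benjamini-Hochberg at 0.05, over 666 miRNAs that reached 1 CPM in at least 3 libraries (19 set aside). edgeR 4.0.16 and DESeq2 1.42.0 on recovered reads, and other settings, were alternatives. The script's fit was tested on simulated data. The members and lists were chosen with earlier results of these data known. The naming rule took all members, the listed relatives (some only counted) and the 3 nearest profiles of miR-16-5p and of miR-103-3p; miR-148b and miR-151, outside it, were chosen after their values were seen. All 7 members matched a RefSeq sequence. Counting errors cover counting only.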

Additional observations from a re-analysis of the deposited data

How the results depend on the processing

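Under 19 alternatives (pseudocounts, filters, scalings, variance models, edgeR, DESeq2, the replicate block and each library left out) 0 of 7 members passed in any, and the lowest adjusted p was 0.13 (limma), for miR-15b-3p without RSL3 library 1. The sign of the log2 fold change was kept except for miR-107-3p, which was -0.025 after rescaling without the 5 most abundant miRNAs, -0.035 as a plain share of the listed reads, and between -0.16 and 0.14 with 5 of the 6 libraries. Several values came near 0 when a library was dropped: miR-15b-5p was -0.00057 without DMSO library 2, miR-15b-3p 0.0096 without RSL3 library 2, and without DMSO library 3 miR-103-3p was 0.02, miR-16-5p 0.07 and miR-195a-5p 0.13. For miR-15a-5p the unadjusted p was above 0.05 with median centring (0.068), quantile normalization (0.059), DESeq2 (0.060), the replicate block (0.093) and 4 of the 6 dropped libraries (limma unless named). The log2 ratio difference of miR-103-3p to miR-107-3p, 0.11 as reported, ran from -7.09e-05 to 0.25 with 5 of the 6 libraries, and the low end was the value without RSL3 library 3; the cause was not tested. Whether libraries of the same number belong together is not given in the labels. The r of same-numbered deviations was -0.35, -0.33 and -0.19, and no library correlated best with its own number. Deviations from a group mean sum to 0 within the group, so these r depend on one another and cannot decide the pairing. With the number as a block, miR-15a-5p had an adjusted p of 0.56 in limma, and the miR-15b arm ratio, at a difference of -0.34, one of 0.74. With 3 libraries a group, the 95% interval of the log2 fold change included 0 for each member except miR-15a-5p.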

Other observations

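Of the precursors with the highest within-group spread, miR-151 and miR-148b deviated strongly in RSL3 library 2 and DMSO library 2, as did miR-15b. Deviations here are from the mean of all 6 libraries, so a difference between the groups enters them. The log2 ratio of 5p to 3p of miR-151 lay -0.74 from its mean in RSL3 library 2 and 0.80 from it in DMSO library 2, and that of miR-148b 0.92 and -0.91. For miR-15b these deviations were -0.80 and 0.76. Other precursors with a high spread and both strands at 100 CPM or more differed from this. In the same 2 libraries miR-27a was at 0.66 and -0.02, miR-743a at 0.0035 and -0.22, and miR-708 at -0.22 and 0.17. RSL3 library 1, at 0.62 for miR-15b, was at 0.05 for miR-151 and 0.02 for miR-148b. RSL3 library 3 was at -0.33, -0.40 and 0.45 in that order, and DMSO library 3 at -0.18, 0.41 and -0.51. For miR-151 and miR-148b the group means lay apart, so RSL3 library 1 was farther from its group mean than from the mean of all 6 libraries. These precursors were chosen after their values were seen, and the relation between them was not tested.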
